A study of Mus musculus with 5 samples.

Results

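The genes described here encode the subunits of the mitochondrial respiratory chain and of ATP synthase that the nucleus carries. They were chosen by name. A gene was a member if its only symbol started with Ndufa, Ndufb, Ndufc, Ndufs, Ndufv, Uqcr, Cox4 to Cox8 or Atp5, or if it was Sdha, Sdhb, Sdhc or Sdhd. This gave 90 of the 18193 genes measured. The rule used names and no expression value, but it was set with earlier results of these data known. Of these, 34 belong to complex I, 4 to complex II, 8 to complex III, 19 to complex IV and 17 to complex V. The name rule also took in 8 assembly factors of complex I (Ndufaf1 to Ndufaf8), which are not subunits of the finished enzyme and are described apart.

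The samples were CD4+ T cells of mice on the BALB/c background. CXCR6 Hi (n = 2 arrays) and CXCR6 Lo (n = 2 arrays) CD3+CD4+ cells were sorted with a CXCL16-Fc fusion protein from the colonic lamina propria (LP) of Rag1-/- mice with colitis. These mice have no T or B cells of their own and had received CD4+CD45RBhigh T cells from healthy donors, by the study's methods 8 weeks earlier and by the legend of its list of array values 6 weeks earlier. The third group, CD45Rb Hi (n = 1 array), was CD3+CD4+ naive T cells, which the methods and one label place in the spleen and another label in the lamina propria of healthy mice. Mice were 8 to 12 weeks old. The subset labels speak of biological replicates, the number of mice behind each array is not stated, and the p-values therefore measure only the spread between these arrays. In sorted bulk cells, fewer cells of a type and less RNA per cell cannot be told apart.

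Complexes I and II pass electrons from NADH and succinate to ubiquinone, complex III hands them to cytochrome c, and complex IV hands them to oxygen. Complexes I, III and IV pump protons out of the matrix, and ATP synthase, called complex V, lets them flow back to make ATP. Nuclear genes encode most subunits, which are made in the cytosol and imported, while mitochondrial DNA encodes a few hydrophobic ones. Resting naive T cells live largely on oxidative phosphorylation, and activated T cells raise glycolysis together with mitochondrial mass.

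Values are signals of the Affymetrix mouse whole-genome array, divided so that the probe sets of an array have a median of 1. A difference is given on the log2 scale with the standard error (SE) of limma, a linear model fitted to all genes at once, and with its p-value after Benjamini-Hochberg adjustment over all 18193 genes. A member passed the test at an adjusted p under 0.05. The single naive array has no spread of its own and was taken to vary as the LP groups do. Signals of different probe sets are not set against each other as levels.

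The LP arrays and the naive array differed well beyond the members. Of all genes, 15.1% passed as higher and 18.8% as lower in the LP cells. The ratio of the 3' to the 5' Gapdh probe set, which can rise as RNA breaks down, was 2.81 to 6.96 over the LP arrays and 1.51 in naive cells. Xist, the RNA of X inactivation, gave 181 to 215 over the LP arrays and 0.864 in naive cells, and the Y-linked Eif2s3y had 1.59 to 3.41 against 53.5, so that the sexes of the cells differ too. The 8 T cell markers measured summed to 477 to 730 over the LP arrays and to 597 in naive cells, and 4 had the higher mean in LP cells and 4 in naive cells (median log2 difference -0.06, from -1.83 for Cd3e to 1.13 for Cd5). Summed signals of 7 B cell markers were 5.94 to 6.64 over the LP arrays and 178 in naive cells, where Ighm alone gave 123. Of these, 6 were lower in LP cells and Pax5 was higher, at signals of at most 1.22. The 9 fibroblast and smooth muscle markers summed to 95.6 to 154 against 10.7, and 8 had the higher mean in LP cells. The 9 myeloid markers summed to 268 to 353 over the LP arrays and to 162 in naive cells. Only 5 of the 9 had the higher mean in LP cells, and Tyrobp had 8.90 to 19.4 against 58.7 in naive cells. The 15 colonic epithelial markers summed to 50.3 and 52.7 in replicate 1 of CXCR6 Hi and CXCR6 Lo, to 96.6 and 117 in replicate 2, and to 108 on the naive array, where Car1 alone gave 85.2. The part of these differences in the results that follow was not tested.

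In LP cells of both subsets together, 7 members were higher than in naive cells (7.78% of the 90), 20 were lower (22.2%) and 63 did not pass. The lower share was near the 18.8% of all genes and the higher share was below the 15.1% of all genes. The median log2 difference of the members was -0.22, beside -0.14 for all genes. The counts in each direction varied between the complexes. Complex V had 7 of 17 members lower and 1 higher, the assembly factors 3 of 8 lower and 0 higher, and complex III 2 of 8 lower and 0 higher. Complex I had 5 of 34 lower and 2 higher, complex IV 3 of 19 lower and 4 higher, and none of the 4 complex II genes passed. Medians were -0.19 for complex I, -1.01 for its assembly factors, -0.13 for complex II, -0.40 for complex III, 0.23 for complex IV and -0.42 for complex V. In complex IV 8 of the 19 members are forms restricted to certain tissues, most of them dim. Its median is the value of such a form, Cox6a2 (SE 0.66). No test compared the complexes with each other. The calls rest on all 4 LP arrays, since with any 1 of them left out, which leaves 1 residual degree of freedom, 0 to 1 members passed as higher and 0 to 2 as lower, while the median stayed between -0.36 and -0.09.

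**Figure D1:**
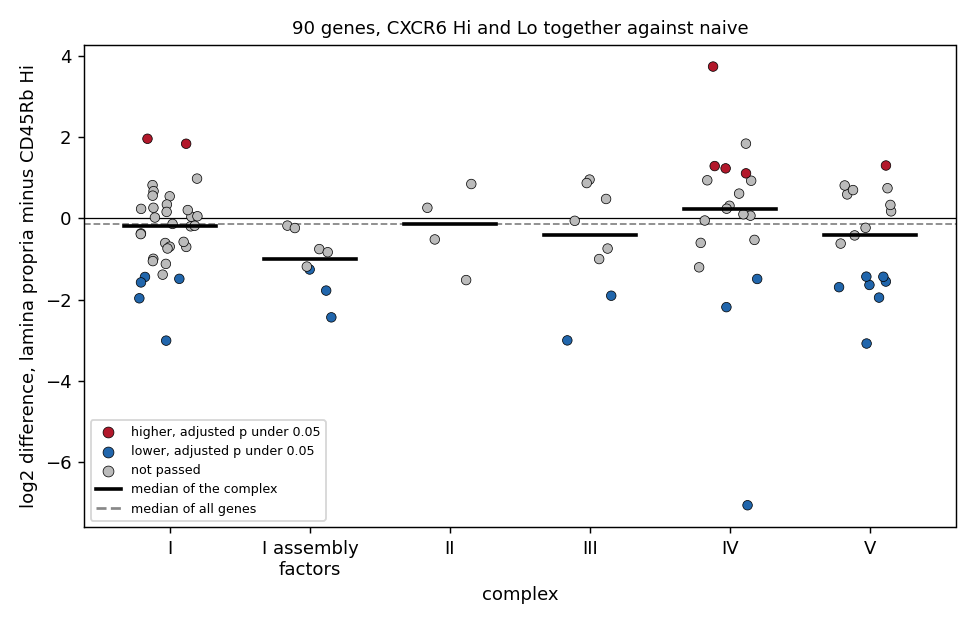
Log2 difference of each of the 90 members, LP cells (CXCR6 Hi and CXCR6 Lo together) minus CD45Rb Hi naive cells, by complex. Each point is a gene, red where higher and blue where lower at an adjusted p under 0.05 by limma, grey where not passed. Bars mark the median of each complex and the dashed line the median of all genes (-0.14). Members of the same complex lie on both sides of 0 in complexes I to V.

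Complex I is the NADH dehydrogenase that starts the chain. Its lowest member was Ndufs5, an accessory subunit that is held in the intermembrane space. Ndufs5 signals were 4.71 and 4.60 on the CXCR6 Hi arrays, 3.24 and 3.07 on the CXCR6 Lo arrays and 30.9 on the naive array. All LP arrays lay far below the naive array, 8.06-fold on average (log2 difference -3.01, SE 0.24, adjusted p = 0.012 by limma). Ndufb10, another accessory subunit of the membrane arm, had 23.7 and 34.3 in CXCR6 Hi, 20.6 and 20.9 in CXCR6 Lo and 95.1 in naive cells (-1.97, SE 0.32, adjusted p = 0.0246). Ndufs3, a core subunit of the hydrophilic arm, had 27.9 and 33.5, then 21.6 and 21.1, against 76.2 in naive cells (-1.58, SE 0.26, adjusted p = 0.0246). The accessory subunits Ndufa5 and Ndufa7 were also lower, by log2 differences of -1.49 and -1.44. Of the 6 core subunits measured, Ndufs3 alone passed, and the median of the 6 was -0.18.

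In the other direction, Ndufa1, a small membrane-arm subunit whose gene lies on the X chromosome, had signals of 209 and 256 in CXCR6 Hi, 178 and 176 in CXCR6 Lo and 52.3 in naive cells. Each LP array was thus above the naive array, and the mean difference was 3.87-fold (log2 difference 1.95, SE 0.26, adjusted p = 0.0185 by limma). The other X-linked member, Ndufb11, had signals of 136 to 171 over the LP arrays and 132 in naive cells (0.16, not passed). Ndufb1, an accessory subunit with low signals, had 5.55 and 8.47 in CXCR6 Hi, 3.62 and 4.23 in CXCR6 Lo and 1.46 in naive cells (1.83, SE 0.36, adjusted p = 0.0331).

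The assembly factors of complex I build the enzyme and then leave it. All 8 had a lower mean in LP cells than in naive cells, and 3 passed the test. Of all genes, 46.8% had a higher mean in LP cells. Among all genes with a mean signal of 4 to 16 it was 27.7%. Ndufaf2, a chaperone that stays on a late assembly intermediate, had 2.63 and 4.23 in CXCR6 Hi, 3.27 and 2.79 in CXCR6 Lo and 17.2 in naive cells (log2 difference -2.44, SE 0.38, adjusted p = 0.0228 by limma). Ndufaf3 was lower by a log2 difference of -1.78 (SE 0.28, adjusted p = 0.023) and Ndufaf5, which modifies a core subunit, by -1.26 (SE 0.27, adjusted p = 0.041). Ndufaf5 had signals of 2.83 to 4.58 over the LP arrays and 8.98 in naive cells. The factor of the 8 that differed least was Ndufaf1, with 6.20 to 9.26 on the LP arrays, around the 8.49 of the naive array.

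Complex II, succinate dehydrogenase, is shared with the citric acid cycle. The catalytic subunits Sdha and Sdhb and the membrane anchors Sdhc and Sdhd lay on opposite sides of 0, but no gene of the 4 passed. Sdhb, the iron-sulphur subunit, had 53.4 and 68.9 in CXCR6 Hi, 51.1 and 56.0 in CXCR6 Lo and 31.8 in naive cells (log2 difference 0.84, SE 0.28, adjusted p = 0.0977 by limma). Sdhc had 6.14 and 10.5 in CXCR6 Hi, 5.23 and 4.66 in CXCR6 Lo and 18.1 in naive cells (-1.52, SE 0.40, adjusted p = 0.0598). Sdha, the flavoprotein, differed by 0.26 (SE 0.26) and Sdhd by -0.52 (SE 0.35). Sdha had a value of -0.43 with the mean of its 4 probe sets, and Sdhd one of 0.06 after quantile normalization. The other Sdhd probe set, at a mean signal of 18.0, had 3.43 to 7.16 over the LP arrays and 70.2 in naive cells (-3.90).

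In complex III, the members lower in LP cells were small supernumerary subunits. Uqcr10 had 6.97 and 6.60 in CXCR6 Hi, 7.28 and 4.10 in CXCR6 Lo and 48.8 in naive cells, an 8.02-fold lower mean (log2 difference -3.00, SE 0.42, adjusted p = 0.0192 by limma). Uqcr11 had 7.40 and 11.5, then 6.35 and 6.68, against 29.0 in naive cells (-1.91, SE 0.35, adjusted p = 0.03). The core protein genes Uqcrc2 and Uqcrc1 had differences of 0.95 and -0.06, and the Rieske iron-sulphur protein gene Uqcrfs1 had 0.86. None of these passed, and a second probe set of Uqcrc2 gave 0.23.

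Complex IV, cytochrome c oxidase, had members that passed in both directions. Several of its subunits exist as a general form and as a form restricted to muscle, testis or lung. The promoters of a pair of such forms, Cox6b1 (general) and Cox6b2 (described in testis), are printed here because only the restricted form passed the test, and those of Cox8a and Atp5g2 because both are general genes that were lower in LP cells. Each runs from 250 bases before to 50 bases after the start of the gene, 5′ to 3′ along the gene's strand, in RefSeq's build GRCm38.p6. Capitals mark the letters of 4 motifs searched for on both strands, the CCAAT box (CCAAT), an ETS-type site (CCGGAAG), the NRF1 core (GCATGCG) and the YY1 core (AAGATGG), and of a TATA box (TATAAA). Overlapping matches run together in capitals.
Cox6b1, chr7:30626065-30626364, minus strand: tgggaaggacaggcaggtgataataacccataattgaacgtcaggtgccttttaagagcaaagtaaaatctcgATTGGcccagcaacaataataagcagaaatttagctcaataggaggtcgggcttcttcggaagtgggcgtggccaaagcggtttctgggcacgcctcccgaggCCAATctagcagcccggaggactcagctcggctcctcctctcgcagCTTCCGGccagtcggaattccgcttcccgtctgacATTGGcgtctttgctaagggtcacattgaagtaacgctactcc
Cox6b2, chr7:4753045-4753344, minus strand: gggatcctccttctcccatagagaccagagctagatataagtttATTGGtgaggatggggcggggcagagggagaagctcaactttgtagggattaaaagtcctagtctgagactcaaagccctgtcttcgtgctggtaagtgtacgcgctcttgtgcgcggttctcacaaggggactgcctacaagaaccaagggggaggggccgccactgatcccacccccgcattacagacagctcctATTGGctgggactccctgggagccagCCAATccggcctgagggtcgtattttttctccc
Cox8a, chr19:7217567-7217866, minus strand: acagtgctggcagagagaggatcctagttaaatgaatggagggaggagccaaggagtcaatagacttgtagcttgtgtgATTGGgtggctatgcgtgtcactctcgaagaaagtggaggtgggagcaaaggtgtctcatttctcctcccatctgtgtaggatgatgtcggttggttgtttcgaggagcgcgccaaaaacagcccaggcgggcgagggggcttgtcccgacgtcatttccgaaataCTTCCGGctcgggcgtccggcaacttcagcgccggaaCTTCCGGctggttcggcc
Atp5g2, chr15:102670998-102671297, minus strand: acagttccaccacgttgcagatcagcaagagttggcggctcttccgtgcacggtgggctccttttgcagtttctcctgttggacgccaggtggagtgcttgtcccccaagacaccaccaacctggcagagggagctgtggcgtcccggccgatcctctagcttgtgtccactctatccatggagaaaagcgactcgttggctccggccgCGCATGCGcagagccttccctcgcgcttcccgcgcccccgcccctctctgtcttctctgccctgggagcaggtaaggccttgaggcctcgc
The Cox6b1 promoter held CCAAT boxes and an ETS-type site, and the Cox6b2 promoter CCAAT boxes alone. Cox8a held ETS-type sites and a CCAAT box. Atp5g2 held the NRF1 core on both strands at the same place, since these letters overlap their own reverse complement. CpG pairs numbered 17 in the Cox6b1 window and 10 in that of Cox6b2.

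Over all members, 74 had a promoter in the RefSeq table, and 34 of these (45.9%) held an NRF1, ETS-type or YY1 match, compared with 25.4% of the 14452 tested genes with a promoter. The NRF1 core was in 16.2% of the members' promoters and 5.86% of all, the ETS-type site in 25.7% and 15.0%, and the YY1 core in 14.9% and 7.54%. For the CCAAT box the shares were 43.2% and 42.0%, and for the TATA box 10.8% and 11.5%. Of the 19 members lower in LP cells that had a promoter, 8 held an NRF1, ETS-type or YY1 match, as did 0 of the 6 higher members and 26 of the 49 that did not pass. These are matches of letters in a fixed window and were not tested.

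Cox6b2 had signals of 0.190 and 0.524 in CXCR6 Hi, 0.058 and 0.335 in CXCR6 Lo and 27.9 in naive cells. All LP arrays were near or under the array median of 1 and scattered widely there, while the naive array was well above it (log2 difference -7.06, SE 1.23, adjusted p = 0.0269 by limma). The size of this difference is uncertain, since it rests on dim LP signals. With 1 added to each signal before the log, so that such values weigh less, it was -4.52. Its general counterpart Cox6b1 had 194 and 220, then 173 and 158, against 121 in naive cells (0.61, SE 0.25, adjusted p = 0.146). Cox6b1 had a value of -0.03 after quantile normalization and of -0.11 with the mean of its 2 probe sets.

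The Cox8 genes ran the other way. Cox8a, the general form of a small nuclear subunit, had 7.35 and 5.92 in CXCR6 Hi, 5.03 and 5.10 in CXCR6 Lo and 26.3 in naive cells (log2 difference -2.19, SE 0.27, adjusted p = 0.0164 by limma). Cox8c, known from testis, had 4.28 and 3.06 in CXCR6 Hi, 4.50 and 4.93 in CXCR6 Lo and 0.311 in naive cells (3.73, SE 0.31, adjusted p = 0.0121). The naive signal was under the array median of 1, so the size of this difference is uncertain, and with 1 added to each signal it was 1.97. Its second probe set was dimmer, with 0.366 to 1.97 over the LP arrays and 0.082 in naive cells, and had the same direction (3.21). For Cox8a the second probe set gave -2.30 and the third, at signals of 0.943 to 1.58, gave -0.26.

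None of the other restricted forms passed. Cox4i2 (0.92), Cox6a2 (0.23), Cox7a1 (-0.61), Cox7b2 (1.83), Cox8b (0.10) and Ndufa4l2 (-0.53) had signals of at most 2.15 on every array, close to or under the array median. Their standard errors ran from 0.42 for Cox4i2 to 1.28 for Ndufa4l2. Cox6a2, Cox8b and Ndufa4l2 changed sign when a single LP array was left out. Among the general partners, Ndufa4, once counted to complex I and now to complex IV, was lower, with 20.5 and 25.6 in CXCR6 Hi, 18.1 and 14.2 in CXCR6 Lo and 53.9 in naive cells (-1.49, SE 0.30, adjusted p = 0.0361 by limma). Cox4i1 (0.93), Cox6a1 (0.31) and Cox7a2 (0.06) did not pass, and the last pair had values of -0.45 and -0.73 after quantile normalization.

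The members of complex IV that were higher besides Cox8c were bright on all arrays. Cox5b, a subunit of the matrix side, had 207 and 239 in CXCR6 Hi, 195 and 181 in CXCR6 Lo and 84.1 in naive cells (log2 difference 1.28, SE 0.25, adjusted p = 0.0339 by limma). Cox7a2l, which links complexes III and IV into supercomplexes, had 209 and 254, then 223 and 214, against 96.0 (1.23, SE 0.26, adjusted p = 0.0395). Cox5a had 226 and 263, then 198 and 182, against 100.1 (1.10, SE 0.26, adjusted p = 0.0463). Each of these genes had another probe set in the opposite direction.

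ATP synthase has a catalytic head (F1), a stator and a membrane ring of c subunits that turns as protons pass. The c subunit is the same mature protein from 3 genes, which differ in their import signals. Atp5g1 had 8.76 and 9.32 in CXCR6 Hi, 5.85 and 8.08 in CXCR6 Lo and 66.7 in naive cells, an 8.46-fold lower mean (log2 difference -3.08, SE 0.31, adjusted p = 0.0138 by limma). Atp5g2 had 18.3 and 19.7, then 14.7 and 9.15, against 57.4 in naive cells (-1.95, SE 0.37, adjusted p = 0.0314). Atp5g3 had 194 and 227, then 189 and 162, against 115 in naive cells, so that every LP array was above the naive array, and the difference of 0.74 did not pass (SE 0.27, adjusted p = 0.113). The difference between the 3 genes was not tested.

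The other members of complex V that were lower were in the head, the stator and the membrane part. Atp5e, the epsilon subunit of the head, was lower by -1.64 (log2 difference, SE 0.24, adjusted p = 0.0212 by limma), with 23.0 to 33.4 over the LP arrays and 86.1 in naive cells. Atp5md, a small subunit of synthase dimers, had 15.9 to 23.6 against 66.4 (-1.70, SE 0.33, adjusted p = 0.0335). Atp5l (-1.56), Atp5o (-1.44), which connects head and stalk, and Atp5mpl (-1.44) were lower too. Atp5c1, the rotating gamma subunit, was the only one higher, with 221 and 284 in CXCR6 Hi, 209 and 201 in CXCR6 Lo and 92.3 in naive cells (1.30, SE 0.28, adjusted p = 0.0399). The catalytic subunit genes Atp5a1 (0.59) and Atp5b (0.17) did not pass. Other probe sets of Atp5a1 gave 0.19 and -5.40. The last, at a mean signal of 26.5, had 2.58 to 3.22 over the LP arrays and 121 in naive cells.

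**Figure D2:**
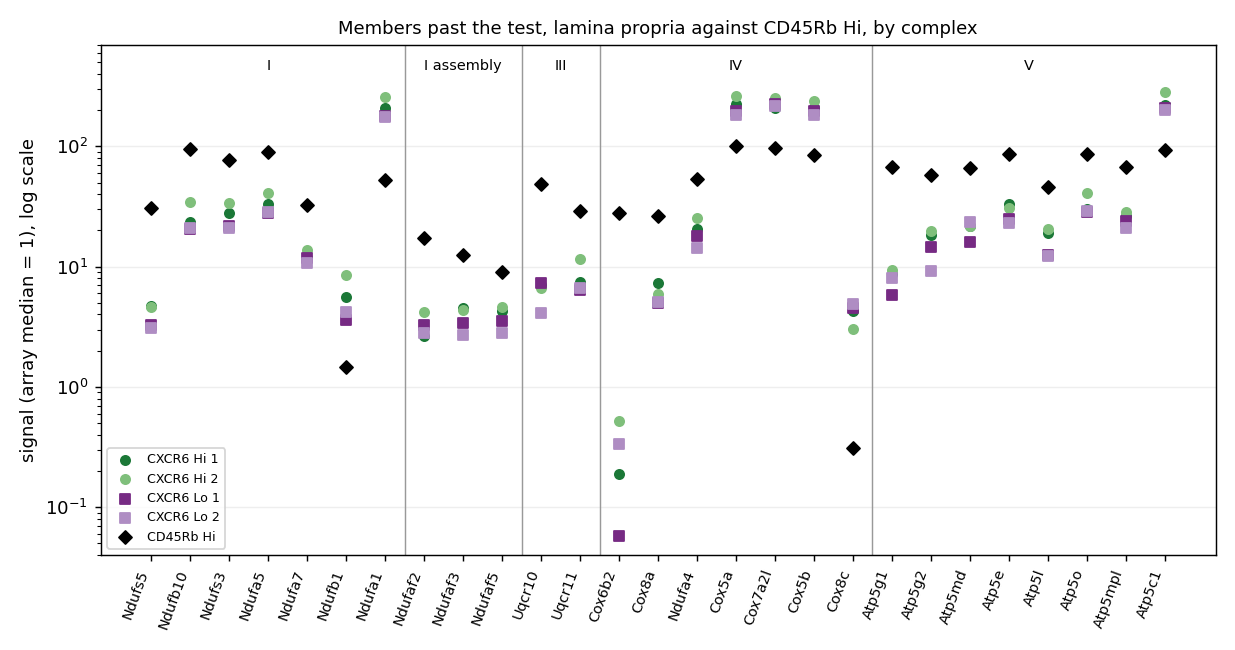
Signal of the 27 members that passed between LP and naive cells, in all 5 samples (log axis, median of an array 1), grouped by complex. Circles are CXCR6 Hi, squares CXCR6 Lo and black diamonds the CD45Rb Hi naive array. For each gene the 4 LP arrays lie on the same side of the naive array.

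Genes related to the chain were compared in the same fit, where 15.1% of all genes were higher and 18.8% lower. Of 50 assembly factors of all complexes measured, the 8 Ndufaf genes among them, 19 were lower (38.0%) and 1 was higher (2.0%). Their median was -0.89. The lowest were Tmem126b, a complex I assembly factor (0.490 to 0.657 over the LP arrays, 3.70 in naive cells, log2 difference -2.72), and Sco2, which delivers copper to complex IV (1.04 to 1.88 against 9.35, -2.58). Higd1a, tied to complex IV and hypoxia, was the higher one, with 77.0 to 101 against 30.7 (1.52). Of 27 genes for cytochrome c, ubiquinone synthesis and mitochondrial carriers, 2 were higher (7.41%) and 8 lower (29.6%). Slc25a3, the phosphate carrier that feeds ATP synthase, had 306 to 360 over the LP arrays and 88.5 in naive cells (1.92), and Cycs, cytochrome c itself, 166 to 222 against 87.4 (1.16). Pdss2 and Coq4, both of ubiquinone synthesis, were lower, with 0.530 to 1.45 against 32.6 (-5.30) and 0.587 to 1.19 against 5.69 (-2.90).

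Of 27 regulators of mitochondrial transcription and biogenesis, 4 were higher (14.8%, beside 15.1% of all genes) and 7 lower (25.9%, beside 18.8%). Polg2, the accessory subunit of the mitochondrial DNA polymerase, had 119 to 136 over the LP arrays and 11.4 in naive cells (log2 difference 3.48, SE 0.24, adjusted p = 0.0119 by limma). Ppara was higher at signals under 0.5 (2.55). Polrmt, the mitochondrial RNA polymerase, had 3.30 to 4.05 against 16.2 (-2.18), and Mterf1a 2.41 to 5.22 against 15.7 (-2.08). Of 22 citric acid cycle genes, 1 was higher and 1 lower (4.55% each, median -0.53). Of 17 glycolysis genes 2 were higher and 2 lower (11.8% each, median 0.09). Of 76 mitochondrial ribosomal protein genes, 42 were lower (55.3%) and 0 higher (median -1.36). Of 57 cytosolic ribosomal protein genes 13 were higher (22.8%) and 12 lower (21.1%), with a median of 0.68. The array had 1 probe set named for a gene of mitochondrial DNA, ND5, with 82.4 to 121 over the LP arrays and 90.1 in naive cells (0.22, not passed).

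Among members with a mean signal of 4 or more, the direction moved with that signal. The mean is taken over the 5 arrays, 4 of them of LP cells, so a member's own difference helps to set its bin. Of the 30 members with a mean signal of 64 or more, 24 were above the naive array, and their median log2 difference was 0.56, beside 0.78 for all genes of that brightness. The 38 members between 16 and 64 had a median of -0.72, beside -0.27 for all such genes, and 8 of them were above the naive array. Between 4 and 16 the 13 members had a median of -1.78, beside -0.81, with 1 above the naive array. The 9 dimmer members did not follow this order, with a median of 0.23 for the 3 between 1 and 4, beside -0.46 for all such genes, and of 0.07 for the 6 under 1, beside 0.37. The arrays differed in shape in the same way. The brightest 1% of genes began at signals of 166 to 214 over the LP arrays and at 113 in naive cells, whereas the brightest 10% began at 28.9 to 35.1 and at 40.6. Quantile normalization, which gives all arrays the same distribution, moved the median of all genes from -0.14 to -0.00. After it, 8 members were higher, 4 of them among the 7, and 17 were lower, 16 of them among the 20. Of all 18193 genes, 2770 were then higher and 2308 lower, beside 2756 and 3414 on the deposited signals.

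**Figure D3:**
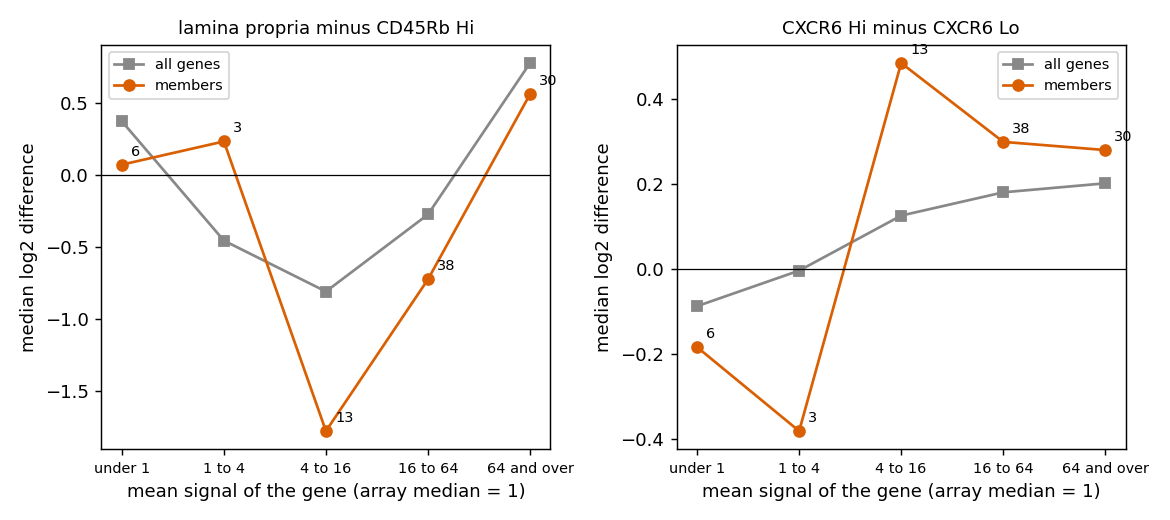
Median log2 difference of members (orange circles, with the number of members) and of all genes (grey squares) in bins of the mean signal of the gene over the 5 arrays, for LP minus naive cells (left) and CXCR6 Hi minus CXCR6 Lo cells (right). On the deposited signals drawn, members with a mean signal of 4 or more follow all genes of the same brightness in direction. After quantile normalization this did not hold throughout. Between 16 and 64 the LP minus naive medians were then -0.40 for members and 0.18 for all genes. Between the subsets, the bins of 4 or more then had medians of -0.03 to -0.02 for all genes and 0.05 to 0.34 for members.

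Of the members, 51 had more than 1 probe set, and the brightest was used for each. Brightness was the mean over the 5 arrays, 4 of them of LP cells, which favours a probe set with higher LP signals. The counts of opposite probe sets that follow depend on this choice and do not show which calls are firmer. Among the 74 other probe sets that averaged a signal of 1 or more, in 46 genes, 26 had the opposite sign to the one used between LP and naive cells. The members lower in LP cells had 9 such probe sets, and 0 of these were opposite. The higher members also had 9, and 4 of these were opposite. One of the 4 was a probe set of Cox7a2l at a mean signal of 61.6 (-1.18, beside 1.23 and 0.93 for its other probe sets). Another was a probe set of Cox5b with 36.1 to 51.0 over the LP arrays and 65.1 in naive cells (-0.62, beside 1.28 for the one used). For Cox5a the opposite probe set gave -0.12 and for Atp5c1 -0.06. Ndufs4, an accessory subunit, had -1.05 for the probe set used and 1.16 for another at a mean signal of 4.77, and did not pass. Ndufa1 and Ndufb1 had a single probe set each. A dim probe set of Atp5g2, at a mean signal of 0.231, was opposite as well (1.39). Where probe sets of a gene are opposite, the array does not give one direction for the gene.

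**Figure D4:**
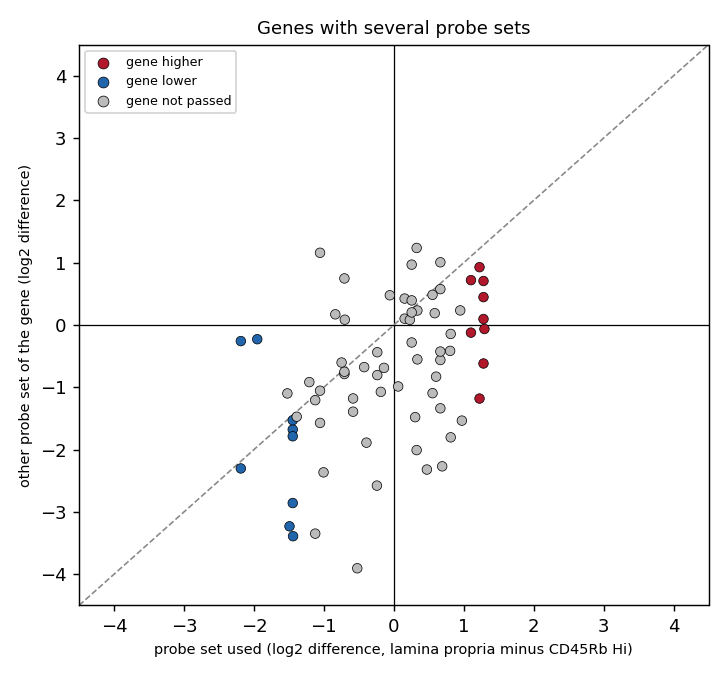
Log2 difference (LP minus CD45Rb Hi naive cells) of the probe set used for a member (horizontal axis) and of each other probe set of the same gene that averaged a signal of 1 or more (vertical axis). A probe set of Atp5a1 at -5.40 lies below the range of the vertical axis and is not drawn. Red and blue mark genes that passed as higher or lower, grey those that did not. The blue points all lie at or below 0 on both axes, and 4 of the 9 red points lie below 0.

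The subsets were also set against the naive array one at a time, sharing that array. In CXCR6 Hi cells 7 members were higher and 16 lower (background 13.2% and 15.3% of all genes, members 7.78% and 17.8%). In CXCR6 Lo cells 2 were higher, Ndufa1 and Cox8c, and 20 lower (background 12.8% and 16.7%, members 2.22% and 22.2%). Median differences were -0.10 in CXCR6 Hi and -0.31 in CXCR6 Lo. Atp5c1 had 1.44 in CXCR6 Hi and 1.15 in CXCR6 Lo, and passed in the first alone. Whether the subsets differed is the comparison between them.

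Between the subsets no member passed. Of all genes 0.0% passed, and at an unadjusted p under 0.05 limma gave 2 members, Atp5l (higher in CXCR6 Hi) and Ndufaf6 (lower). The methods' t-test gave 5 members at that level, all higher, and 0 members after adjustment. The lowest adjusted p of a member was 0.733. The members nevertheless leaned one way. In 81 of 90 the CXCR6 Hi mean was above the CXCR6 Lo mean, compared with 57.5% of all genes, and the median log2 difference was 0.29, a fold of 1.22, compared with 0.08 for all genes. Both CXCR6 Hi arrays were above both CXCR6 Lo arrays for 53 members (58.9%), beside 25.1% of all genes, and below both for 2 members, beside 14.3% of all genes.

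On the deposited signals the median was above 0 in every complex, though not by the same share of genes. The mean was above that of CXCR6 Lo for 33 of 34 complex I genes (median 0.27), 6 of 8 assembly factors (0.24), 4 of 4 complex II genes (0.27), 8 of 8 complex III genes (0.35), 13 of 19 complex IV genes (0.20) and 17 of 17 complex V genes (0.30). The complex IV share was 68.4%, beside 57.5% of all genes. Among all genes with a mean signal of 4 or more the share was 66.1% to 87.7%, depending on the bin. Of the 8 restricted forms, all of complex IV, 3 were above 0. Among members whose arrays did not overlap, Ndufb1 was the highest, with 5.55 and 8.47 in CXCR6 Hi and 3.62 and 4.23 in CXCR6 Lo (log2 difference 0.81, SE 0.32, adjusted p = 0.761 by limma). Next came Atp5g2, with 18.3 and 19.7 against 14.7 and 9.15 (0.71, SE 0.33), Sdhc, with 6.14 and 10.5 against 5.23 and 4.66 (0.70, SE 0.36), and Atp5l, with 19.1 and 20.4 against 12.4 and 12.3 (0.67, SE 0.21, adjusted p = 0.734). The 2 members below were Ndufaf6, with 1.08 and 1.51 against 2.34 and 2.33 (-0.88, SE 0.28, adjusted p = 0.733), and Cox8c, with 4.28 and 3.06 against 4.50 and 4.93 (-0.38, SE 0.28).

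The lean was not even over the arrays. CXCR6 Hi replicate 2 was above CXCR6 Hi replicate 1 in 76 of 90 members, by a median log2 difference of 0.28, which is as large as the difference between the subsets. The CXCR6 Lo arrays differed by a median of -0.03. Without CXCR6 Hi replicate 2 the median between the subsets was 0.14, with 67 of 90 members above 0, and without CXCR6 Hi replicate 1 it was 0.42, with 82 above 0. On the deposited signals bright genes in general leaned the same way. Of all genes with a mean signal of 64 or more 87.7% were above 0 (median 0.20), as were 30 of 30 members (0.28). Between 16 and 64 it was 77.3% of all genes (0.18) and 36 of 38 members (0.30), and between 4 and 16 66.1% of all genes (0.12) and 12 of 13 members (0.48).

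Quantile normalization lowered the median of all genes between the subsets from 0.08 to -0.04. The members' median then fell to 0.08, with 60 of 90 above 0 beside 46.4% of all genes. Of all genes with a mean signal of 64 or more 44.5% were then above 0 (median -0.02), as were 20 of 30 members (0.05). Other lists leaned alike on the deposited signals, with 68 of 76 mitochondrial ribosomal (median 0.19), 48 of 57 cytosolic ribosomal (0.17), 19 of 22 citric acid cycle (0.16) and 14 of 17 glycolysis genes (0.26) above 0. The other probe sets of the members gave 65 of 74 above 0, with a median of 0.29. T cell markers summed to 653 and 730 in CXCR6 Hi and to 535 and 477 in CXCR6 Lo, and 6 of the 8 had the higher mean in CXCR6 Hi. Markers of other cells leaned the other way, with 2 of 15 epithelial (median -0.49), 2 of 9 myeloid (-0.09) and 3 of 9 fibroblast and smooth muscle markers (-0.11) above 0. The 3' to 5' ratio of Gapdh was 2.81 and 3.98 in CXCR6 Hi and 4.19 and 6.96 in CXCR6 Lo, and that of Actb 2.02 and 2.32 against 2.67 and 4.22, so that both ratios were lower on both CXCR6 Hi arrays. The part of these in the lean of the members was not tested.

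**Figure D5:**
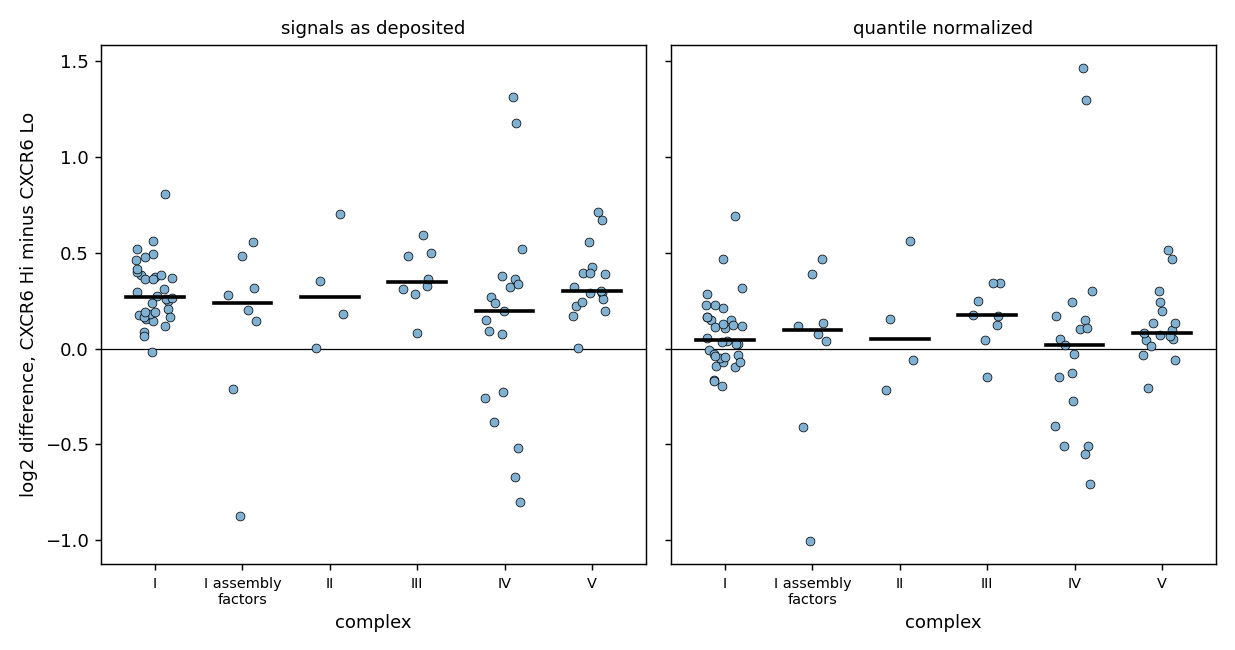
Log2 difference of each member, CXCR6 Hi minus CXCR6 Lo (means of 2 arrays each), by complex, on the deposited signals (left) and after quantile normalization (right). Points are genes and bars medians of a complex. On the left 81 of 90 points lie above 0 and on the right 60 of 90.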

How the data were processed

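RNA of CXCR6 Hi (n = 2), CXCR6 Lo (n = 2) and CD45Rb Hi (n = 1) cells was measured on Affymetrix mouse whole-genome arrays. The deposited intensity values are linear signals with a median of 1 on each array, which the authors made with GeneSpring by their methods and with RMA by the submitters' notes. Precision is limited by the number of arrays. Of 45101 probe sets, 34945 with 1 gene symbol gave 18193 genes, each by its brightest probe set on average, and 932 with several symbols were left out, 10 of them of member genes. Their log2 was taken, with 2 zeros (none of a member) set to 0.001.

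Groups were compared with limma 3.58.1 in R 4.3.3 (lmFit, contrasts.fit and eBayes, two-sided, adjusted over all genes by Benjamini-Hochberg at a threshold of 0.05). The 3 groups were in 1 fit, with 2 residual and 1.678 prior degrees of freedom. The fit was also run on simulated data in which the naive array had the spread of the LP arrays. Such data cannot check that the real naive array varies as the LP arrays do. The members and lists were chosen with earlier results of these data known. Named in the text were, per complex, the up to 3 highest and 3 lowest members that passed, the succinate dehydrogenase genes, the restricted forms and their partners, the 4 highest and 4 lowest members between the subsets with arrays apart, members with opposite probe sets, and the 2 highest and 2 lowest of each related list. Other genes were named after their values were seen. Promoters of 74 members were matched by symbol. The alternatives are those of the closing section. The labels do not say that replicate numbers mark a shared preparation, and they were not used as a block. Over all genes, deviations of same-numbered arrays from their group means correlated at 0.0193.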

Additional observations from a re-analysis of the deposited data

Results flagged for a closer look

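Members whose CXCR6 Hi arrays both lay above the naive array while both CXCR6 Lo arrays lay below it numbered 3, and the difference in direction was not tested as such. The share of all genes with this pattern is not given here, so the count cannot be set against a background. Cox7a2, a general subunit of complex IV, had log2 differences from naive cells of 0.23 in CXCR6 Hi and -0.11 in CXCR6 Lo. Ndufa10, an accessory subunit of complex I, had 0.16 and -0.087, and Ndufb4, of the same complex and at signals under the array median, 0.18 and -0.085. None of these members passed between the subsets or against naive cells by limma. Both comparisons share the single naive array.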

How the results depend on the processing

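Counts against naive cells moved with the setting, for members and for all genes. Of all genes in LP cells, 2480 were higher and 4308 lower of 10916 with the 40th percentile filter. Log2 of the signal plus 1 gave 2817 and 5086 of 18193, the variance trend 3545 and 4757, and the adjusted t-test 2027 and 2669. The filter, added 1 and trend gave 2449 and 3867, 2648 and 4616, and 3353 and 4265 for CXCR6 Hi. For CXCR6 Lo they gave 2187 and 4265, 2379 and 4951, and 3161 and 4612. In LP cells (7 members higher, 20 lower), the 40th percentile filter gave 16 and 32, log2 of the signal plus 1 gave 18 and 34, a variance trend with robust fitting 20 and 35, the methods' t-test 4 and 11 after adjustment and 13 higher unadjusted, and the mean of the probe sets 3 higher. For CXCR6 Hi (7 and 16) the filter, added 1 and trend gave 18 and 25, 19 and 30, and 20 and 30, the mean of the probe sets 3 higher, omission of _s_at and _x_at probe sets 4 higher, and the t-test 0 and 0 after adjustment, 0 higher and 10 lower unadjusted. For CXCR6 Lo (2 and 20) they gave 10 and 33, 13 and 35, and 15 and 36, quantile normalization 5 higher, and the t-test 0 and 0 after adjustment and 7 higher unadjusted. Leaving out 1 LP array, which leaves 1 residual degree of freedom, gave 0 to 1 higher and 0 to 2 lower in LP cells and 0 in each direction for either subset by limma. Without either CXCR6 Lo array 0 of all genes passed between LP and naive cells, where 7530 and 7545 had an unadjusted p under 0.05, 30 members among them each time. Between the subsets 0 members passed in limma under every alternative, and 5 were higher by the unadjusted t-test.

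With the replicate numbers as a block, 2 members were higher and 5 lower in LP cells, beside 1705 and 1807 of all genes. For CXCR6 Hi and for CXCR6 Lo against naive cells 0 members passed in each direction. For CXCR6 Lo 33 members had an unadjusted p under 0.05 by limma. Over all genes, the deviations of same-numbered arrays correlated at 0.0193, but the epithelial markers summed higher in replicate 2 of both subsets, so whether the numbers mark a shared preparation is not settled.

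The median of the members in LP cells (-0.22) was -0.48 with the mean of the probe sets and -0.39 without _s_at and _x_at probe sets. For CXCR6 Hi (-0.10) these were -0.34 and -0.33, and leaving out an array gave -0.37 to 0.035, above 0 without CXCR6 Hi replicate 1. For CXCR6 Lo (-0.31) they were -0.67 and -0.57. Between the subsets the median of 0.29 fell to 0.078 with quantile normalization and was 0.14 to 0.42 without 1 array. The cause of these shifts was not tested.

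Of single members between LP and naive cells, Atp5c1 had -0.064 and Cox5b -0.62 without _s_at and _x_at probe sets. With the mean of the probe sets Cox6a1 had -0.59, Cox6b1 -0.11, Cox7a2 -0.46 and Sdha -0.43. With quantile normalization Cox6a1 had -0.45, Cox6b1 -0.027, Cox7a2 -0.73, Cox8b -0.34 and Sdhd 0.060. Without 1 array Cox6a2 had -0.14 to 0.61, Cox7a2 -0.011 to 0.14, Cox8b -0.60 to 0.80 and Ndufa4l2 -1.26 to 0.20. Dim signals limit Cox6b2, Cox8c and the other restricted forms.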
